A study of Mus musculus with 34 samples.

Results

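The 33 genes described here code for the enzymes of glycolysis, the glucose carriers that feed it, the lactate dehydrogenases and lactate carriers at its end, and the kinases and phosphatases that set its flow. They were listed by their function in the pathway, with earlier results of these data known. All 33 were found by their Ensembl identifiers, among 48709 genes in one set of RNA-seq count tables and 22018 genes in the other, and all 33 passed the filter on low counts in every comparison. The cells were mouse embryonic stem (ES) cells of strain 129/Ola grown on gelatin, which lacked subunits of NuRD, a chromatin complex that combines nucleosome remodelling with histone deacetylation. Mta1, Mta2 and Mta3 code for its MTA subunits.

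The culture set held 16 libraries, 4 for each of Control and Mta123KO cells labelled 2iL (2 kinase inhibitors with LIF, the culture that keeps ES cells naive) or labelled 48 h (48 h in N2B27 medium after removal of the inhibitors and LIF). Mta123KO cells were made by targeting Mta2 in Mta1_del/del, Mta3_flox/flox cells and then deleting Mta3 with Cre, and the Control line was derived alongside the parent of these cells. The single-mutant set held 18 libraries, 3 each of Mta1_del/del and Mta1_flox/flox, Mta2_KO and Mta2_WT, and Mta3_del/del and Mta3_flox/flox ES cells, all labelled 2iL. Per the study's methods, null Mta alleles were made in mice by crossing conditional alleles to a Sox2-Cre line. Total counts ran from 37855790 to 57602285 in the culture set and from 13105820 to 40613585 in the single-mutant set. In the culture set each replicate label carries 2 numbers, and the first was read as the cell line, so that a group holds 2 libraries from each of 2 lines. The labels do not say that libraries came from separate cultures, and p-values then measure only the spread between these libraries.

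Glycolysis splits glucose into pyruvate in the cytosol. Pyruvate either enters mitochondria through pyruvate dehydrogenase or is reduced to lactate, which leaves the cell through monocarboxylate carriers. Several steps are catalysed by alternative isozymes, each coded by its own gene, and cells change the balance between them. Naive ES cells are known to use both respiration and glycolysis, while primed pluripotent cells rely more on glycolysis. The hypoxia-inducible factors and Myc are textbook activators of many of these genes.

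Levels are given as CPM, a gene's counts relative to the total counts of its library, which were scaled within each set by the trimmed mean of M values (TMM), and the sets were scaled separately. In a sentence, the values of a culture-set group are listed in the order of its labels 1_1, 1_2, 2_1 and 2_2, so that the first pair belongs to line 1 and the second to line 2. The value after ± is a standard deviation (SD) for a level and a standard error for a log2 fold change. A gene was called where the Benjamini-Hochberg adjusted p of edgeR's quasi-likelihood test over all genes tested was under 0.05. Since these are bulk samples, fewer cells of a type and less RNA per cell cannot be told apart.

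The labels and the names under which the tables were deposited give opposite cultures for the 16 libraries of the culture set. The summed level of 8 naive pluripotency markers was 167 to 253 CPM in Control libraries labelled 2iL and 3700 to 4072 CPM in those labelled 48 h, and the sum of 5 formative markers was 847 to 1407 CPM and 76.5 to 88.2 CPM. The same sums were 431 to 549 and 1911 to 2826 CPM (naive) and 233 to 337 and 80.6 to 116 CPM (formative) in Mta123KO libraries. All libraries of the single-mutant set, labelled 2iL, held 3218 to 5833 CPM of the naive markers. The markers thus go against the culture labels in the culture set. Each culture is therefore named as labelled. Words such as rose and fell between the cultures compare the labels only and do not state a course of differentiation. If the labels were exchanged, every direction between cultures and the sign of the interaction would be reversed. The assignment of a genotype difference to a culture would be exchanged as well. Mta2 stood at 4.71 to 8.999 CPM in Mta123KO against 111 to 129 CPM in Control libraries labelled 2iL, and at 6.52 to 10.4 against 185 to 201 CPM in those labelled 48 h, in the direction of the genotype labels. Mta2_KO libraries held 9.23 to 11.9 CPM of Mta2 against 231 to 247 CPM in Mta2_WT, Mta3_del/del libraries 9.65 to 12.8 CPM of Mta3 against 60.6 to 70.4 CPM in Mta3_flox/flox, and Mta1_del/del libraries 38.5 to 48.04 CPM of Mta1 against 69.02 to 105 CPM in Mta1_flox/flox.

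The promoters of 4 members are shown as examples of glucose uptake, lactate production, lactate export and pyruvate entry, and all 4 genes were called lower in Control libraries labelled 48 h, as described next. Each window runs from 250 bases before to 50 bases after a RefSeq transcription start (GRCm38.p6, plus strand). The motif searched was ACGTG on both strands, which is the core of the hypoxia response element, together with CACGTG, the E-box bound by Myc and other basic helix-loop-helix proteins, which contains ACGTG on both strands. Capitals mark each match. Slc16a3 codes for MCT4, a carrier that exports lactate, and its window at chr11:120948817-120949116 held 2 matches.
Slc16a3: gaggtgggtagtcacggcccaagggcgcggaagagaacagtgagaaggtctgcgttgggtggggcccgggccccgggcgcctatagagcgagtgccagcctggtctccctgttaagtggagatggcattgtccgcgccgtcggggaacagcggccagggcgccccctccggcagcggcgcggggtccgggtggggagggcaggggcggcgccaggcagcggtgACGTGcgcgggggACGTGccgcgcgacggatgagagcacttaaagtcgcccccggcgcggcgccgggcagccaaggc
Ldha codes for the lactate dehydrogenase subunit that favours lactate production, and its first window at chr7:46845554-46845853 held 5 ACGTG matches, 4 of them within its 2 CACGTG motifs.
Ldha: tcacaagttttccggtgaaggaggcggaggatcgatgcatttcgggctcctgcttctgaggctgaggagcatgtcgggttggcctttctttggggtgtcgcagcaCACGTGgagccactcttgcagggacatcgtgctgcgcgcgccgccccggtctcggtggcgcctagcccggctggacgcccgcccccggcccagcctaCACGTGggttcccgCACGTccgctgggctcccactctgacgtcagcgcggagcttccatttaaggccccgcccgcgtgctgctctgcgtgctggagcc
Slc2a1 codes for GLUT1, a basal glucose carrier, and its window at chr4:119108495-119108794 held 1 match.
Slc2a1: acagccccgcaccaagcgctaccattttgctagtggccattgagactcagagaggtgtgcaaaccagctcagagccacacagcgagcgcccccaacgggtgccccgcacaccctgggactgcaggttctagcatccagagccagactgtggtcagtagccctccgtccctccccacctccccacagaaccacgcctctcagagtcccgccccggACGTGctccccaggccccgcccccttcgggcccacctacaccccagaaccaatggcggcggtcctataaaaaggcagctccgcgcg
Pdk1 codes for a kinase that inhibits pyruvate dehydrogenase, and neither of its windows held a match, the first of which, at chr2:71872974-71873273, is shown.
Pdk1: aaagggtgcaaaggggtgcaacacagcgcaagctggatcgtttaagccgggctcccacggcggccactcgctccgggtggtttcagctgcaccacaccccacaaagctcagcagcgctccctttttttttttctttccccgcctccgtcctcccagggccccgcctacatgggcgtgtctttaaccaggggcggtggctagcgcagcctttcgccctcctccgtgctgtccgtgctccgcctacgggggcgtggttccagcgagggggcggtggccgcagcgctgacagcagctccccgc

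A RefSeq promoter was matched by symbol for 32 of the 33 members, the exception being Slc2a3. At least 1 window with ACGTG was found for 17 of these 32 genes (53.1%), against 21.8% of all 27025 genes with a promoter in the table. Counted by window, which takes out the larger number of starts per member, the motif lay in 21 of 51 member windows (41.2%) and 19.6% of all windows. CACGTG lay in 6 of 51 member windows (11.8%) and 7.15% of all windows. A match describes the letters of the window only, and Slc16a3 and Pdk1, with 2 matches and none, are the members whose levels differed most between the cultures in Control cells.

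In Control cells Slc2a1, Pfkl and Ldha were lower and their paralogs Slc2a3, Pfkp and Ldhb higher in libraries labelled 48 h, and 8 of the 12 lower-pathway members and both lactate carriers were lower. Of the 33 members, 8 were called higher and 14 lower in libraries labelled 48 h, and 11 were not called. Over all 21240 genes tested, 29.5% were called higher and 29.0% lower. The median log2 fold change was -0.21 over the members and 0.0058 over all genes. The members' share of lower calls was thus above that of all genes and their share of higher calls below it. Scaling on the spiked-in ERCC RNAs moved the median of all genes by 0.18 and gave 8 members higher and 9 lower. Over all 21240 genes it gave 5993 higher and 3664 lower. Levels of 12 members in each library of the culture set are plotted on a log axis.

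**Figure D1:**
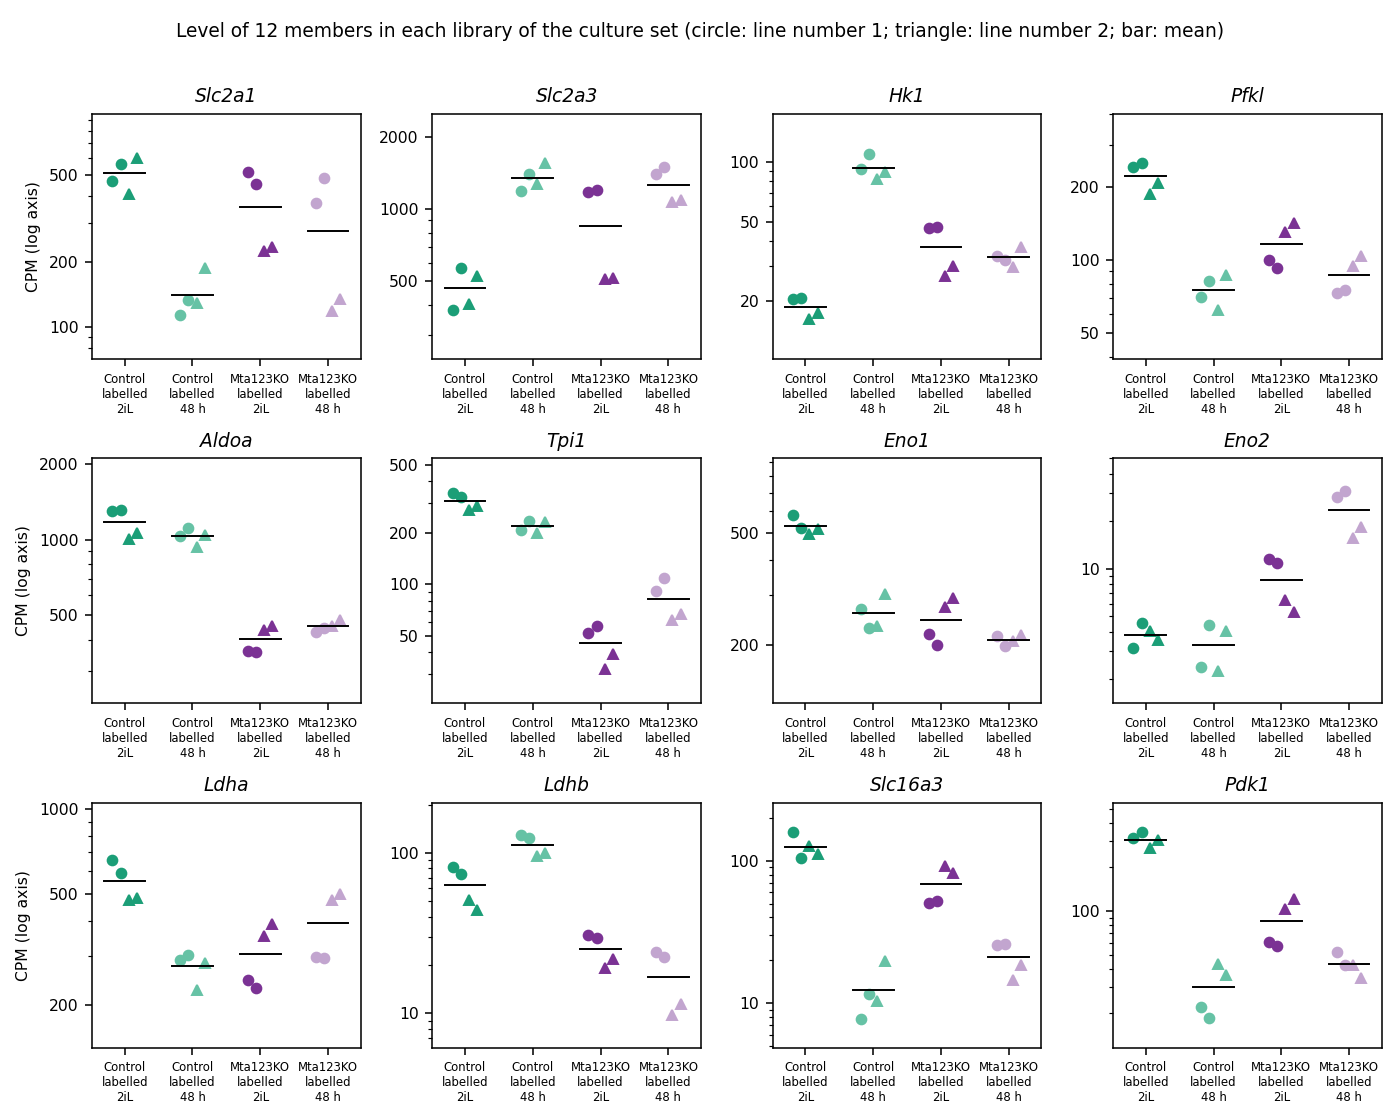
CPM (log axis) of 12 members in each of the 16 libraries of the culture set, by group, with circles for line number 1, triangles for line number 2 and a bar at the mean of the 4 libraries. In Control cells Slc16a3 lies at 104 to 160.0 CPM under the label 2iL and at 7.77 to 19.7 CPM under 48 h, and the circles and triangles of Mta123KO stand apart for Slc2a1 and Slc2a3.

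Glucose carriers in Control cells moved in opposite directions. Slc2a1 stood at 471, 560.2, 409.5 and 598 CPM in Control libraries labelled 2iL and at 114, 133, 129 and 188 CPM in those labelled 48 h. Every library labelled 48 h was below every library labelled 2iL (log2 fold change -1.84 ± 0.16, edgeR adjusted p = 2.6e-06). Slc2a3, which codes for GLUT3, a carrier of high affinity for glucose, gave 379, 569, 404 and 525 CPM in libraries labelled 2iL and 1194, 1404, 1272 and 1567 CPM in libraries labelled 48 h. Its groups did not overlap and its order was the reverse (log2 fold change 1.55 ± 0.13, edgeR adjusted p = 2.43e-06).

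At the upper steps, hexokinases trap glucose as its phosphate and phosphofructokinase commits it to glycolysis. Hk1, a hexokinase present in most tissues, rose 5.07-fold in libraries labelled 48 h (log2 fold change 2.34 ± 0.11, edgeR adjusted p = 1.98e-08), from 20.4, 20.5, 16.2 and 17.3 CPM to 92.7, 109.6, 82.4 and 89.1 CPM. Hk2, the inducible hexokinase, was not called, at 200.4 to 237 and 208 to 270.2 CPM. Among the phosphofructokinase subunits, the liver type Pfkl fell from 243, 251, 187 and 209 CPM to 70.3, 81.8, 62.6 and 86.9 CPM (log2 fold change -1.55 ± 0.12, edgeR adjusted p = 9.69e-07). The platelet type Pfkp rose from 74.8, 92.6, 85.3 and 90.7 CPM to 149, 176, 187 and 206 CPM (log2 fold change 1.08 ± 0.10, edgeR adjusted p = 4.38e-06). The muscle type Pfkm, at 51.8 to 54.99 and 48.2 to 51.5 CPM, was not called, nor was Gpi1, which interconverts the hexose phosphates.

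Of the 12 members of the lower pathway from aldolase to pyruvate kinase, 8 were lower in Control libraries labelled 48 h, none was called higher, and Aldoa, Aldoc, Pgam2 and Eno2 were not called. With the replicate number as a block, Aldoa, Aldoc and Pgam2 were called lower in addition (adjusted p = 0.0174, 0.0308 and 0.0273). Enolase 1, coded by Eno1, fell from 580.4, 521, 499 and 519 CPM to 267, 229.7, 234 and 305 CPM (log2 fold change -1.02 ± 0.09, edgeR adjusted p = 3.04e-06). Eno3, the muscle enolase, fell from 25.03, 21.5, 23.1 and 23.5 CPM to 9.04, 10.01, 8.55 and 10.02 CPM (log2 fold change -1.29 ± 0.08, edgeR adjusted p = 1.92e-07). The other 6 that fell changed less, with log2 fold changes of -0.66 for Bpgm, -0.64 for Pkm, -0.57 for Pgk1, -0.47 for Tpi1, -0.32 for Gapdh and -0.24 for Pgam1. Pkm, which codes for pyruvate kinase, stood at 2299.8 to 2667 CPM in libraries labelled 2iL and 1484 to 1761 CPM in libraries labelled 48 h. Several of these genes have near-identical annotated copies that share reads with them, which took 95.2% of the summed reads of Gapdh and its copies, 82.7% for Pgk1, 77.7% for Eno1 and 52.8% for Pgam1 over the 16 libraries. With the reads of copies added, the 48 calls that could be tested so among the members of largest change in each comparison kept their direction and their call. Gapdh, which is not among them, lost its call in Control cells (log2 fold change -0.13, edgeR adjusted p = 0.119). Scaling on the ERCC RNAs removed the calls of Tpi1, Gapdh, Pgk1, Pgam1 and Slc16a1.

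The RNA levels of Slc16a3 and Pdk1 showed the largest changes of any member in Control cells. Slc16a3 stood at 160.000, 104, 127 and 112 CPM in libraries labelled 2iL and 7.77, 11.6, 10.4 and 19.7 CPM in libraries labelled 48 h, a 10.1-fold fall (log2 fold change -3.33 ± 0.26, edgeR adjusted p = 9.75e-07). Pdk1 fell 10.2-fold, from 313, 344, 268 and 303 CPM to 22.03, 18.4, 43.2 and 36.2 CPM (log2 fold change -3.34 ± 0.24, edgeR adjusted p = 5.53e-07). Neither gene's groups overlapped. Slc16a1, which codes for MCT1, a carrier that takes lactate in either direction, moved less (log2 fold change -0.44). Of the other pyruvate dehydrogenase kinases, Pdk2 and Pdk3 were not called and Pdk4 was called higher.

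The dehydrogenase subunits also parted. Ldha was at 658, 594, 473 and 484 CPM in Control libraries labelled 2iL and 291, 302, 226 and 284 CPM in those labelled 48 h (log2 fold change -0.99). Ldhb, the subunit that favours the use of lactate, was at 82.02, 73.996, 51.1 and 44.4 CPM and 129, 124, 96.2 and 99.97 CPM (log2 fold change 0.85). Ldha was thus called lower and Ldhb higher. Among the regulators, Pfkfb2, a bifunctional enzyme that makes and breaks down the phosphofructokinase activator fructose 2,6-bisphosphate, rose from 3.52, 4.94, 6.13 and 5.81 CPM to 14.8, 14.1, 14.6 and 13.4 CPM (log2 fold change 1.497 ± 0.15, edgeR adjusted p = 8.52e-06). Pfkfb4, Pdk4 and Pdha1, a catalytic subunit of pyruvate dehydrogenase, were also called higher, with log2 fold changes of 0.52, 0.84 and 0.49. The Pdk4 groups overlapped, at 1.44 to 2.72 and 2.68 to 5.29 CPM.

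In Mta123KO cells fewer members were called between the cultures, as were fewer of all genes. With all 4 libraries of a group as samples, 5 were higher and 3 lower in libraries labelled 48 h, and 25 were not called. Over all 21505 genes, 12.4% were called higher and 10% lower, against 29.5% and 29.0% of the genes tested in Control. The median log2 fold change was -0.069 over the members and 0.0034 over all genes. The lines differed more within Mta123KO than within Control, with a median line difference of 1.46-fold over the members labelled 2iL and 1.30-fold over those labelled 48 h, against 1.11-fold and 1.09-fold in Control. With the replicate number as a block, 20 members were called, 10 higher and 10 lower, beside 4882 higher and 4262 lower of all 21505 genes. The same block in Control gave 8 members higher and 17 lower, beside 6810 and 6755 of 21240 genes. The 4 block numbers stand for only 2 lines, so p-values with the block may be too small. With the libraries of a line summed, so that n = 2, none was called by edgeR, and none of all genes tested passed, while 3568 genes had an unadjusted p under 0.05.

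**Figure D2:**
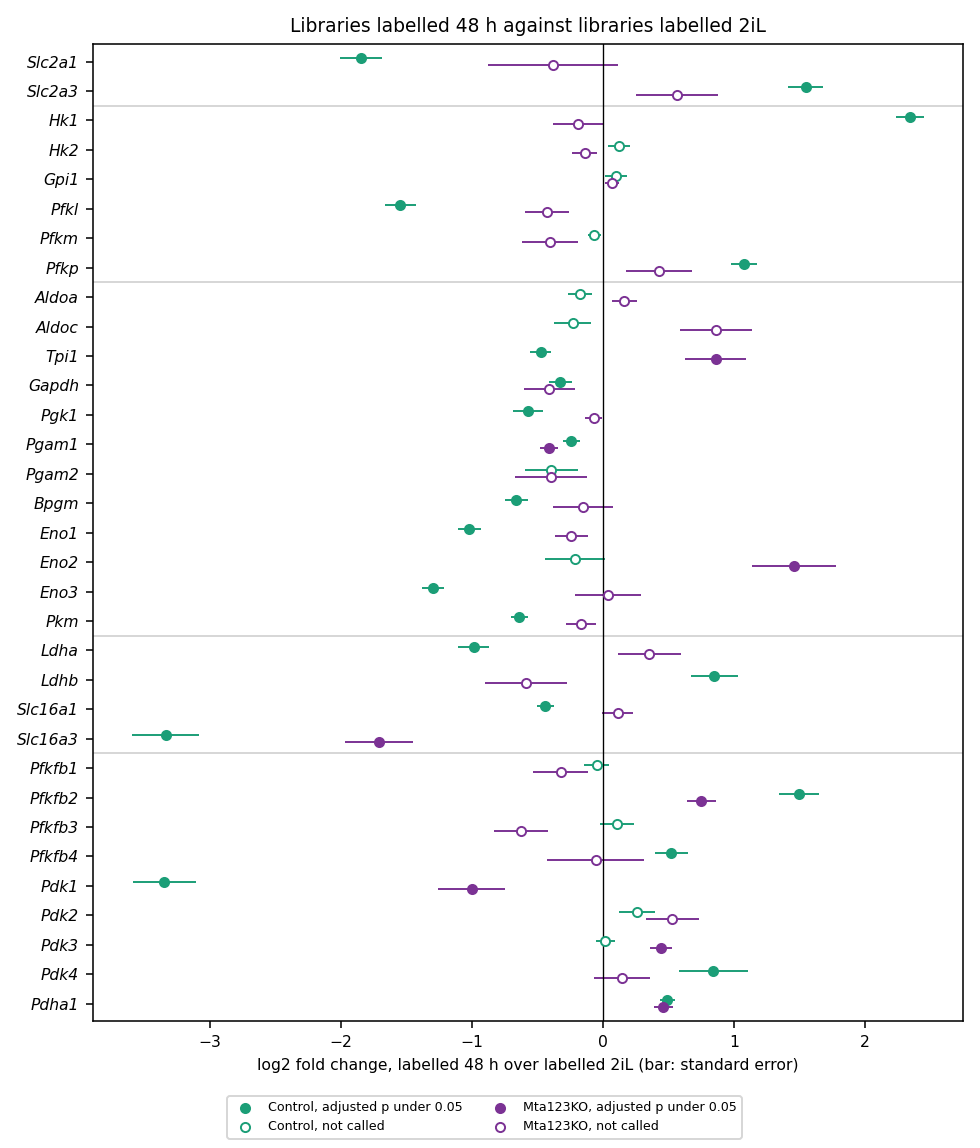
Log2 fold change of each of the 33 members, libraries labelled 48 h over libraries labelled 2iL, in Control (green) and Mta123KO (purple), with the standard error as a bar and filled symbols for an edgeR adjusted p under 0.05. Slc16a3 and Pdk1 lie farthest to the left in Control, at -3.33 and -3.34, and Hk1 farthest to the right at 2.34, with Mta123KO values nearer to 0.

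Slc16a3 again changed most, with 50.2, 52.2, 92.6 and 81.5 CPM in Mta123KO libraries labelled 2iL and 25.7, 26.1, 14.7 and 18.6 CPM in those labelled 48 h (log2 fold change -1.71 ± 0.26, edgeR adjusted p = 0.00262). Pdk1 fell from 61.2, 57.5, 103 and 121 CPM to 52.03, 42.8, 42.7 and 34.6 CPM (log2 fold change -1.001 ± 0.25, edgeR adjusted p = 0.0232). The fall in Pdk1 was 2.00-fold, and its call was lost without any one of 5 of the 8 libraries, namely both line 2 libraries labelled 2iL and, of those labelled 48 h, 1_2, 2_1 and 2_2, with a highest adjusted p of 0.0632. Pgam1, a phosphoglycerate mutase, fell to 134 to 158 CPM from a range of 191 to 206 CPM (log2 fold change -0.41 ± 0.07, edgeR adjusted p = 0.00421).

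Eno2, the neuronal enolase, had the largest rise among the members in Mta123KO cells, from 11.5, 10.9, 6.31 and 5.32 CPM in libraries labelled 2iL to 28.5, 31.3, 15.6 and 18.4 CPM in libraries labelled 48 h (log2 fold change 1.46 ± 0.32, edgeR adjusted p = 0.0125). Both lines rose, from different levels. Tpi1, triosephosphate isomerase, rose from 51.98, 57.3, 32.1 and 38.8 CPM to 91.6, 108, 61.8 and 67.2 CPM (log2 fold change 0.86 ± 0.23, edgeR adjusted p = 0.0293), the reverse of its fall in Control cells. This call was lost without any one of 4 libraries, the line 2 libraries labelled 2iL and the line 1 libraries labelled 48 h, with a highest adjusted p of 0.0753. Pfkfb2 rose to 26.7 to 30.2 CPM from a range of 14.7 to 19.8 CPM (log2 fold change 0.75 ± 0.11, edgeR adjusted p = 0.00202), Pdha1 to 179.9 to 202 CPM from a range of 131 to 149 CPM (log2 fold change 0.46 ± 0.07, edgeR adjusted p = 0.00275) and Pdk3, another pyruvate dehydrogenase kinase, to 39.3 to 47.5 CPM from a range of 29.3 to 33.004 CPM (log2 fold change 0.45 ± 0.08, edgeR adjusted p = 0.00626).

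Slc2a1 and Hk1, which changed 3.58-fold and 5.07-fold between the cultures in Control cells, were not called in Mta123KO cells. Slc2a1 stood at 518, 456, 224 and 234 CPM in libraries labelled 2iL and 370.2, 484, 118 and 134 CPM in libraries labelled 48 h. Line 1 was above line 2 in both cultures, 2.13-fold and 3.38-fold by the means of each line. Hk1 stood at 46.5, 46.99, 26.6 and 29.9 CPM and 33.5, 31.96, 29.5 and 37.2 CPM, with line 1 alone falling between the cultures. With the replicate number as a block, 12 further members were called. Those higher in libraries labelled 48 h were Slc2a3, Pfkp, Aldoc, Ldha and Pdk2, and those lower were Slc2a1, Pfkl, Pfkm, Gapdh, Pkm, Ldhb and Pfkfb3, with blocked log2 fold changes between -0.66 and 0.83.

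Whether the culture difference itself differed between the genotypes was tested over all 16 libraries, as the log2 fold change of Mta123KO minus that of Control. This interaction was called for 17 members, 13 of them higher and 4 lower, against 12.5% and 10.6% of the 22973 genes tested. The median was 0.29 over the members and -0.0017 over all genes. On ERCC scaling, which moved the median of all genes by -0.22, 7 were higher and 4 lower, beside 1383 and 1981 of all 22973 genes. With the replicate number as a block, Slc2a3, Hk2 and Pfkp were called lower in addition (adjusted p = 0.0482, 0.0338 and 0.0287). This block gives Control and Mta123KO libraries of the same number a common effect. Such libraries were not paired between the genotypes (correlations -0.255 to -0.035 labelled 2iL and -0.103 to 0.0306 labelled 48 h), which limits these added calls. With the libraries of a line summed, only Hk1 was called (edgeR adjusted p = 0.0231), beside 406 higher and 304 lower of 25816 genes.

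Hk1 had the most negative interaction, and its rise in Control cells had no counterpart in Mta123KO cells (difference -2.51 ± 0.24, edgeR adjusted p = 2.96e-06). Pdk1 had the most positive one, since its fall in Control was larger than in Mta123KO (2.36 ± 0.38, edgeR adjusted p = 0.000334). Slc16a3 fell in both genotypes and less in Mta123KO (1.65 ± 0.39, edgeR adjusted p = 0.00619). Pfkl fell in Control and had a log2 fold change of -0.43 in Mta123KO that was not called (1.14 ± 0.22, edgeR adjusted p = 0.00152).

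Eno2 was called between the cultures in Mta123KO cells only, and the interaction gave 1.69 ± 0.42, edgeR adjusted p = 0.00797. The interactions of the other enolase Eno3 (1.35 ± 0.28, edgeR adjusted p = 0.00246) and of Ldha (1.36 ± 0.28, edgeR adjusted p = 0.00266) were also positive, with a fall in Control and fold changes of 0.04 and 0.36 in Mta123KO that were not called. Tpi1, which fell in Control and rose in Mta123KO, gave 1.36 ± 0.26, edgeR adjusted p = 0.00133. Ldhb was negative (-1.42 ± 0.39, edgeR adjusted p = 0.0149), with a rise in Control and a value of -0.59 in Mta123KO that was not called. Aldoc was called at 1.11 ± 0.32, edgeR adjusted p = 0.019, a call that was lost on ERCC scaling (adjusted p = 0.0841).

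Mta123KO cells differed from Control cells in most members under either culture label, and 8 of the 12 members of the lower pathway were lower under both labels. In libraries labelled 2iL, 7 members were higher and 17 lower in Mta123KO and 9 were not called, against 27.1% of the 21651 genes tested higher and 24.2% lower. The median log2 fold change was -0.34 over the members and 0.0058 over all genes. In libraries labelled 48 h, 7 members were higher, 14 lower and 12 not called, against 26.6% of 21079 genes higher and 23.4% lower, with medians of -0.17 and 0.0053. Scaling on the ERCC RNAs moved the median of all genes by -0.18 in libraries labelled 48 h. With the libraries of a line summed, 8 members were called in each culture, and 1 of the 8 was higher under the label 2iL and 3 under 48 h. Over all genes, that fit called 2253 higher and 1505 lower of 24467 under 2iL, and 2568 and 1517 of 23899 under 48 h.

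**Figure D3:**
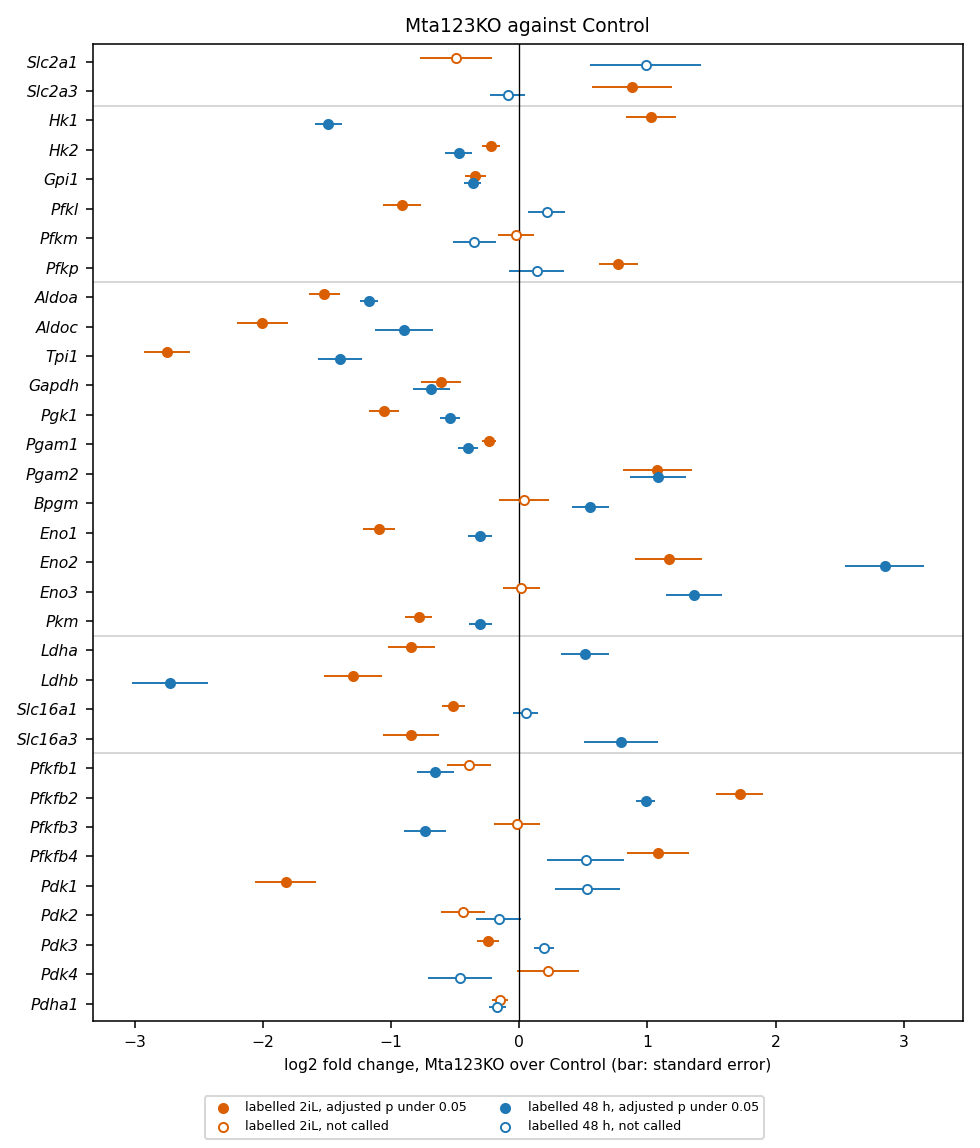
Log2 fold change of each of the 33 members, Mta123KO over Control, in libraries labelled 2iL (orange) and 48 h (blue), with the standard error as a bar and filled symbols for an edgeR adjusted p under 0.05. The rows from Aldoa to Pgam1 lie left of 0 in both cultures, while Hk1 is at 1.03 under the label 2iL and at -1.49 under 48 h.

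Lower in Mta123KO under both labels were 11 members, namely Hk2, Gpi1, Aldoa, Aldoc, Tpi1, Gapdh, Pgk1, Pgam1, Eno1, Pkm and Ldhb. Aldolase A, coded by Aldoa, was at 362, 358, 436 and 454 CPM in Mta123KO libraries labelled 2iL against 1302, 1312, 1004 and 1061 CPM in Control (log2 fold change -1.52 ± 0.12, edgeR adjusted p = 2.09e-05). Under the label 48 h it was at 432, 444, 456 and 478 CPM against 1028, 1110.2, 930.2 and 1044 (log2 fold change -1.18 ± 0.07, edgeR adjusted p = 4.52e-06). Every Mta123KO library lay below every Control library in both. Tpi1 had the largest difference under the label 2iL, where Mta123KO libraries held 32.1 to 57.3 CPM against 271 to 341 CPM, 6.71-fold lower (log2 fold change -2.75 ± 0.18, edgeR adjusted p = 8.65e-06). Under the label 48 h they held 61.8 to 108 against 199.9 to 234 CPM, 2.64-fold lower (log2 fold change -1.40 ± 0.17, edgeR adjusted p = 0.000179).

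Aldoc, the aldolase of brain, was at 2.97, 3.78, 4.81 and 5.06 CPM against 18.8, 20.6, 13.6 and 14.4 CPM in libraries labelled 2iL (log2 fold change -2.003 ± 0.20, edgeR adjusted p = 7.03e-05). In libraries labelled 48 h the values were 5.59, 5.14, 9.49 and 10.1 CPM against 16.6, 14.7, 12.6 and 12.9 (log2 fold change -0.90 ± 0.22, edgeR adjusted p = 0.009). Line 1 was lower than line 2 in Mta123KO under both labels. Eno1 was at 217, 199, 272 and 294 CPM in Mta123KO libraries labelled 2iL, 2.13-fold below Control (log2 fold change -1.09 ± 0.12, edgeR adjusted p = 0.000129), and at 215, 197, 207 and 216 CPM in those labelled 48 h, where the log2 fold change was -0.30 and the call was lost without Control 1_1 or Mta123KO 1_2. Without the reads of copies, the sum of the 12 lower-pathway members was 2524 ± 305 CPM in Mta123KO and 5044 ± 406 CPM in Control libraries labelled 2iL (n = 4 each), and 2362 ± 141 and 3517 ± 209 CPM in those labelled 48 h. Summed over all 33 members, the levels were 5361 ± 137 and 8416 ± 628 CPM, and 5608 ± 88.8 and 6875 ± 470 CPM.

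Ldhb was the member most strongly lower in Mta123KO under the label 48 h. Mta123KO libraries labelled 48 h held 24.1, 22.4, 9.74 and 11.4 CPM, 6.60-fold below Control (log2 fold change -2.72 ± 0.30, edgeR adjusted p = 9.83e-05). Under the label 2iL they held 30.7, 29.4, 19.2 and 21.8 CPM, 2.45-fold below Control (log2 fold change -1.29 ± 0.22, edgeR adjusted p = 0.00129). Line 1 of Mta123KO was above line 2 in both cultures, by 2.20-fold in the libraries labelled 48 h.

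Higher under both labels were Eno2, Pgam2 and Pfkfb2. Eno2 in Control cells lay at 3.18 to 4.53 CPM in libraries labelled 2iL and 2.25 to 4.44 CPM in those labelled 48 h, and each Mta123KO library exceeded all Control libraries of its culture (log2 fold change 1.17 ± 0.26, edgeR adjusted p = 0.00506 under the label 2iL and 2.85 ± 0.30, edgeR adjusted p = 8.8e-05 under 48 h). Pgam2, the muscle phosphoglycerate mutase, was among the lowest members in counts, at 7.36, 6.55, 3.57 and 3.59 CPM against 2.28, 2.12, 3.06 and 2.64 CPM in libraries labelled 2iL (log2 fold change 1.08 ± 0.27, edgeR adjusted p = 0.0085). In libraries labelled 48 h it stood at 4.85, 4.46, 3.42 and 3.36 CPM against 1.64, 1.42, 2.54 and 2.03 (log2 fold change 1.09 ± 0.22, edgeR adjusted p = 0.00293). Pfkfb2 was 3.30-fold higher under the label 2iL (log2 fold change 1.72 ± 0.18, edgeR adjusted p = 9.16e-05) and 1.98-fold higher under 48 h (log2 fold change 0.99 ± 0.07, edgeR adjusted p = 1.32e-05). Pfkfb2 is overlapped by the annotated gene Gm29427, and how strand was treated in counting is not given in the sources used here.

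The sign of the genotype difference depended on the culture label for 3 members. Hk1 was higher in Mta123KO under the label 2iL (log2 fold change 1.03) and lower under 48 h (log2 fold change -1.49 ± 0.11, edgeR adjusted p = 1.04e-05), since Mta123KO held 26.6 to 46.99 and 29.5 to 37.2 CPM in the cultures where Control held 16.2 to 20.5 and 82.4 to 109.6 CPM. Ldha and Slc16a3 were lower under the label 2iL (log2 fold changes -0.84 and -0.84) and higher under 48 h (0.51, and 0.79 ± 0.29, edgeR adjusted p = 0.0454 for Slc16a3). Both calls under 48 h came from groups that overlapped, and each was kept without a library in only 2 of 8 cases. Slc16a3 was not called there without Control 1_1, 1_2 or 2_1 or Mta123KO 1_1, 1_2 or 2_2, with a highest adjusted p of 0.116. Ldha was not called there without any 1 of the Control libraries or Mta123KO 2_1 or 2_2. It stood at 297, 294, 476 and 498 CPM in Mta123KO libraries labelled 48 h, with line 1 just below the highest Control library (302.5 CPM) and line 2 above it.

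Pdk1 was lower in Mta123KO libraries labelled 2iL, which held 57.5 to 121 CPM where Control held 268 to 344 (log2 fold change -1.82 ± 0.24, edgeR adjusted p = 0.000271), and was not called under 48 h. Also called under the label 2iL and not under 48 h were Pfkl, Slc16a1 and Pdk3, which were lower, and Slc2a3, Pfkp and Pfkfb4, which were higher. Pfkfb4 was 2.12-fold higher (log2 fold change 1.08 ± 0.24, edgeR adjusted p = 0.00487). The Slc2a3 groups overlapped, since line 1 of Mta123KO held 1186 and 1204 CPM and line 2 held values within the Control range. When each of the 8 libraries was left out in turn, the call of Slc2a3 held without Mta123KO 2_1 or 2_2, that of Hk2 without Control 1_2 or Mta123KO 2_1 or 2_2, and that of Pdk3 without Control 2_1 only. Called under 48 h and not under 2iL were Eno3 (log2 fold change 1.36 ± 0.22, edgeR adjusted p = 0.000935) and Bpgm, which were higher, and Pfkfb1 and Pfkfb3, which were lower. Slc2a1, Pfkm, Pdk2, Pdk4 and Pdha1 were called under neither. The difference between the cultures was tested by the interaction above, and Slc2a3, Pfkp, Pfkfb4, Bpgm and Pfkfb1 were not called in it.

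Markers of other cell types also differed between the genotypes. Of the 4 trophoblast markers, 4 were called higher in Mta123KO under the label 2iL and 2 under 48 h. The summed level of 4 trophoblast markers was 12.8 to 29.4 CPM in Mta123KO libraries labelled 2iL against 3.32 to 4.10 CPM in Control, and 13.1 to 17.3 against 8.07 to 11.4 CPM under 48 h. The 4 fibroblast markers summed to 6.20 to 7.40 CPM against 1.20 to 2.46 CPM, and 2.35 to 5.36 against 1.71 to 1.98 CPM, with Postn at most at 0.347 CPM in any library of the culture set. Only 2 of the 4 passed the filter on low counts, and 2 were called higher under the label 2iL and 1 under 48 h. Col1a2 went the other way under 2iL, at 0.024 to 0.106 CPM in Mta123KO and 0.166 to 0.975 CPM in Control, so that the list did not move as one. Of the 3 neural markers, Sox1 and Pax6 were called lower under the label 2iL, where Sox1 stood at 8.38 to 10.9 CPM in Mta123KO and 40.8 to 57.6 CPM in Control and Pax6 at 0.801 to 1.61 and 9.93 to 13.4 CPM. Under 48 h Pax6 was lower, at 0.313 to 0.657 and 0.762 to 3.3996 CPM, and Nes higher, at 30.01 to 37.9 and 19.01 to 26.7 CPM. Of the 4 primitive endoderm markers, which summed to at most 16.8 CPM in any library of the culture set, 2 were lower under 2iL, and 2 were higher and 1 lower under 48 h. The part of such cells in the differences of the members was not tested.

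The balance between paralogs was computed from CPM per kilobase of exon, and is given as a description with no test. Slc2a1 made up 69.2% ± 2.27 (SD, n = 4) of Slc2a1 plus Slc2a3 in Control libraries labelled 2iL and 17.5% ± 1.63 in those labelled 48 h. Mta123KO lay between these values, at 46.8% ± 1.94 and 28.5% ± 10.7, and the wide spread of the latter came from its lines, with 35.3% and 39.9% in line 1 and 18.5% and 20.3% in line 2. In the single-mutant set the group means were 13.1% to 27.6%.

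Hk1 made up 5.63% ± 1.03 of Hk1 plus Hk2 in Control libraries labelled 2iL and 21.6% ± 3.29 in those labelled 48 h, against 12.3% ± 3.67 and 12.01% ± 1.51 in Mta123KO. Pfkp made up 16.3% ± 2.36 of Pfkp plus Pfkl in Control libraries labelled 2iL, 54.3% ± 3.92 in those labelled 48 h, and 38.2% ± 1.25 and 52.2% ± 4.67 in Mta123KO. Ldhb made up 19.1% ± 2.20 and 46.1% ± 2.46 of Ldhb plus Ldha in Control, and 15.7% ± 6.08 and 9.30% ± 5.71 in Mta123KO. For glucose carriers, hexokinases and phosphofructokinases the Mta123KO share labelled 2iL thus lay between the Control shares. For lactate dehydrogenase the lines of Mta123KO parted. Under the label 2iL line 1 stood at 20.8% and 21.1% Ldhb, at or above the highest Control library, and line 2 at 10.3% and 10.6%, below all Control libraries. Under 48 h both lines, at 13.8% and 14.6% and at 4.14% and 4.59%, lay below all Control libraries. Eno2 made up 0.827% ± 0.161 and 1.44% ± 0.526 of Eno2 plus Eno1 in Control libraries labelled 2iL and 48 h, and 4.05% ± 2.03 and 11.3% ± 3.52 in Mta123KO. All these shares use only the reads counted on the members' own rows. Near-identical copies took 77.7% of the summed reads of Eno1 and its copies in the culture set, while none was found for Eno2. For Ldhb they took 15.3% and for Ldha 1.55%. With these reads added, the Eno2 shares would be lower and the Ldhb shares higher. The shares in all 34 libraries are plotted by group.

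**Figure D4:**
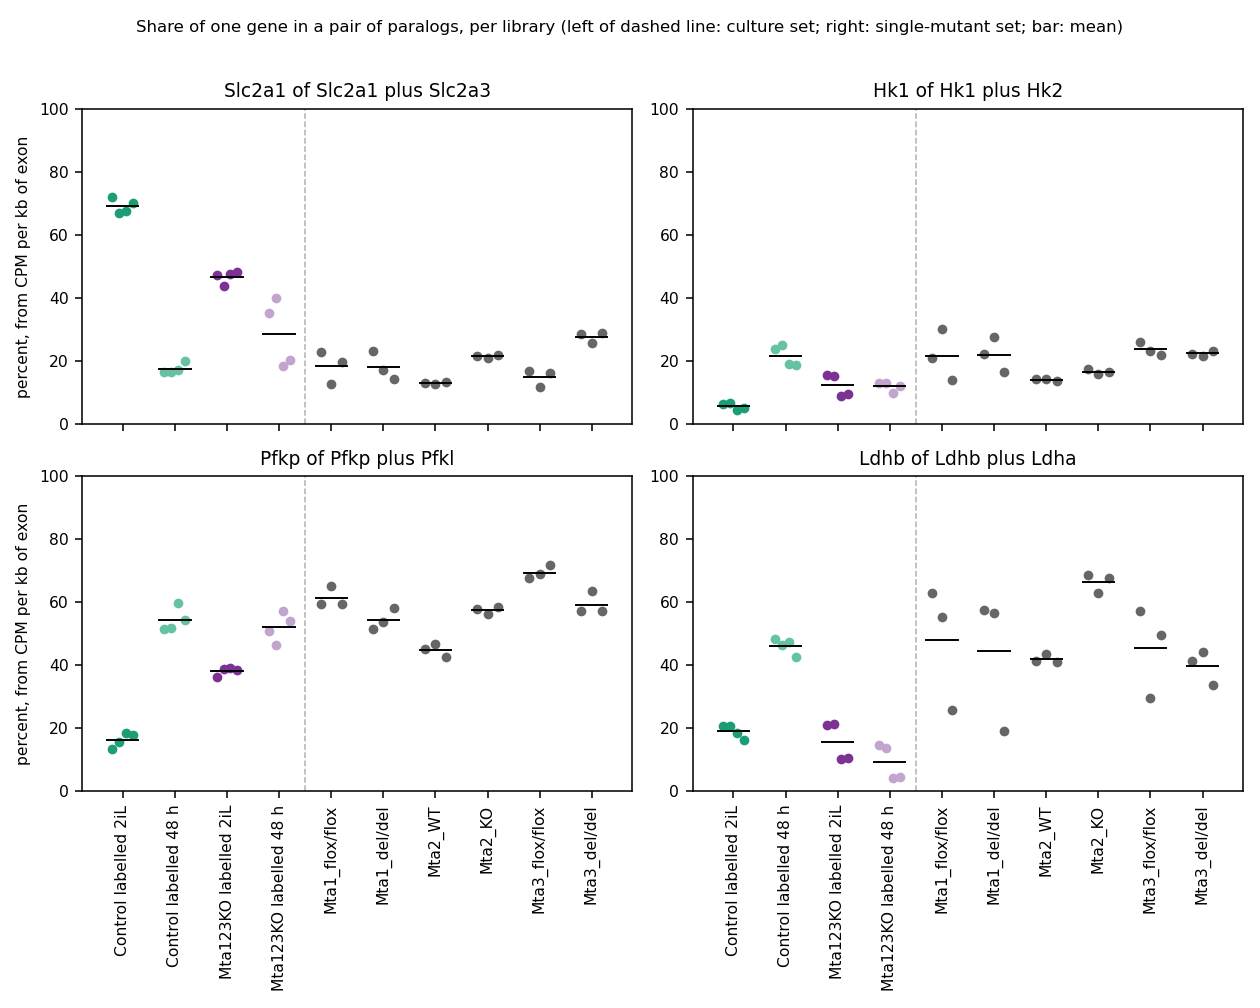
Percent of one gene in a pair of paralogs, from CPM per kilobase of exon, in each of the 34 libraries, with a bar at the group mean and the single-mutant set, which was normalized separately, to the right of the dashed line. Control libraries labelled 2iL stand alone at 69.2% Slc2a1 and 16.3% Pfkp, and Mta2_KO holds 66.4% Ldhb against 41.9% in Mta2_WT.

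Per kilobase of exon, and from the reads counted on the members' own rows, Pkm had the highest mean level of the members over the culture set at 337.0 CPM per kb, followed by Aldoa at 262 CPM per kb, Slc2a3 at 136 and Ldha at 115. Pkm ranged from 228 to 533 CPM per kb over the libraries, Aldoa from 123 to 451, Slc2a3 from 52.4 to 216 and Ldha from 68.3 to 199, so that these ranges overlapped. The lowest means were those of Pfkfb3, Pdk2 and Pdk4, at 0.628, 0.749 and 0.808 CPM per kb. In the single-mutant set Pkm and Aldoa again came first, at 460.5 and 417 CPM per kb. Gapdh, the enzyme often used as a reference gene, was at 31.8 CPM per kb in the culture set and 301 CPM per kb in the single-mutant set, whose tables list 4 of its near-identical copies where those of the culture set list 77. The order in the culture set turned when the reads of copies were added to the member, with Gapdh first at 668 CPM per kb (414 to 880 over the libraries), Pkm next at 495 and Eno1 at 258, close to Aldoa and above Slc2a3 and Ldha.

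Between Mta2_KO and Mta2_WT libraries, members differed in both directions to a similar extent. The labels of this set name no line, so that a difference between lines cannot be told apart from one between genotypes. Libraries 1 and 3 of Mta2_KO and 1 and 2 of Mta2_WT were close to each other, and p-values may be too small. In Mta2_KO against Mta2_WT, 10 members were higher and 10 lower, against 23.5% and 24.3% of the 15602 genes tested, and 13 were not called. The median log2 fold change was 0.016 over the members and 0.0015 over all genes. The number called fell to 5 in a fit of all 18 libraries of the set with a single estimate of the spread. That fit called 1252 higher and 1370 lower of 16271 genes. Of the members called, only Slc2a1 also had an absolute log2 fold change above 1. Markers of cell state differed alongside. The naive markers summed to 3501 to 3624 CPM in Mta2_KO and 4790 to 5097 CPM in Mta2_WT, and 1 of the 8 was called higher and 6 lower. The trophoblast markers summed to 10.8 to 13.9 and 31.6 to 35.0 CPM, with 1 of 4 higher and 2 lower. Cdx2 stood at 1.23 to 1.92 and 15.1 to 16.4 CPM. Pax6 and Nes were called higher and Sox1 lower, and 3 of 4 primitive endoderm markers were lower. Their part in the differences of the members was not tested.

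**Figure D5:**
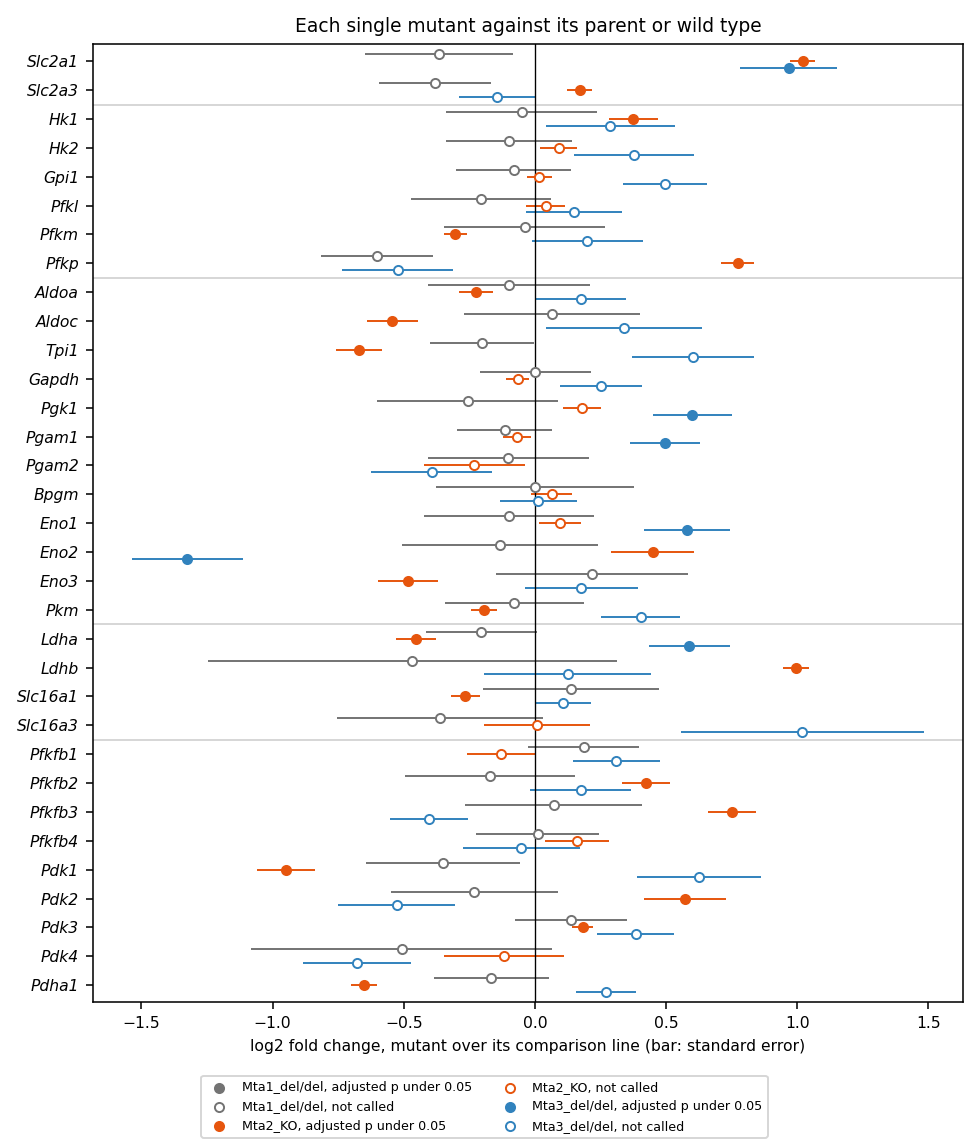
Log2 fold change of each of the 33 members in Mta1_del/del over Mta1_flox/flox (grey), Mta2_KO over Mta2_WT (orange) and Mta3_del/del over Mta3_flox/flox (blue), with the standard error as a bar and filled symbols for an edgeR adjusted p under 0.05. Slc2a1 lies at 1.02 in Mta2_KO and 0.97 in Mta3_del/del, Eno2 lies at -1.32 in Mta3_del/del, and no grey symbol is filled.

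Slc2a1 was at 307, 315 and 309 CPM in Mta2_KO against 159.6, 144 and 153 CPM in Mta2_WT (log2 fold change 1.02 ± 0.05, edgeR adjusted p = 2.54e-07). Ldhb was at 202, 193 and 198 CPM against 97.9, 105 and 93.9 (log2 fold change 0.996 ± 0.05, edgeR adjusted p = 4.3e-07, but an adjusted p of 0.28 in the fit of all 18 libraries). Both were higher in each Mta2_KO library. Pfkp rose from 149, 147 and 132 CPM in Mta2_WT to 238, 262 and 235 CPM in Mta2_KO (log2 fold change 0.77 ± 0.06, edgeR adjusted p = 8.78e-06). Pfkfb3, the isoform of that bifunctional enzyme with the strongest kinase activity, rose from 6.04, 6.63 and 6.69 CPM to 11.5, 10.3 and 10.9 CPM (log2 fold change 0.75 ± 0.09, edgeR adjusted p = 0.00014).

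Pdk1 fell in Mta2_KO, with 11.9, 16.2 and 12.5 CPM against 25.2, 26.9 and 25.9 (log2 fold change -0.95 ± 0.11, edgeR adjusted p = 9.9e-05), and Pdk2, at 2.66 to 3.59 against 2.04 to 2.23 CPM, was called higher (log2 fold change 0.57 ± 0.16, edgeR adjusted p = 0.0142). The Pdk2 call was lost without Mta2_KO 1, Mta2_KO 3 or Mta2_WT 1. Pdha1 fell from 300.1, 315 and 284 CPM in Mta2_WT to 192, 193 and 190.4 CPM in Mta2_KO (log2 fold change -0.65 ± 0.05, edgeR adjusted p = 5.86e-06). In the lower pathway Tpi1 fell from 309.9, 287 and 301 CPM to 174, 219 and 173 CPM (log2 fold change -0.67 ± 0.09, edgeR adjusted p = 0.000208), Aldoc to 6.34 to 7.24 CPM from a range of 9.52 to 10.7 CPM (log2 fold change -0.54 ± 0.10, edgeR adjusted p = 0.0014) and Eno3 to 4.83 to 5.76 CPM from a range of 6.497 to 7.83 CPM (log2 fold change -0.48 ± 0.12, edgeR adjusted p = 0.00726). In the fit of all 18 libraries the adjusted p was 0.0558 for Tpi1, 0.294 for Aldoc, 0.285 for Eno3 and 0.0875 for Pdk2. The 10 further members called had absolute log2 fold changes of at most 0.45, and some calls depended on 1 library. That of Slc2a3 was lost without Mta2_KO 2 or Mta2_WT 2, that of Aldoa without Mta2_KO 1, Mta2_KO 3 or Mta2_WT 1, that of Pkm without Mta2_KO 3 or Mta2_WT 1, and that of Eno2 without Mta2_KO 2, Mta2_KO 3, Mta2_WT 1 or Mta2_WT 2. The 10 were Slc2a3, Hk1, Eno2, Pfkfb2 and Pdk3, which were higher, and Pfkm, Aldoa, Pkm, Ldha and Slc16a1, which were lower.

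Mta3_del/del against Mta3_flox/flox gave 5 members higher and 1 lower, against 8.32% and 7.84% of the 15522 genes tested, and 27 were not called. The median was 0.25 over the members and -0.014 over all genes. These calls rested on few libraries. Without Mta3_del/del 1 none was called, and only 3 of all genes were. Without Mta3_del/del 3 only Eno2 was, beside 133 higher and 242 lower of 16220 genes. Without Mta3_del/del 2 there were 9 members, beside 2066 higher and 2065 lower of 16163 genes. Leaving out Mta3_flox/flox 1, 2 or 3 left 2, 2 or 3 members called. Over all genes these fits gave 391 higher and 573 lower, 195 and 248, or 216 and 366. The counts of all genes were thus also lowest without Mta3_del/del 1 and highest without Mta3_del/del 2.

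Eno2 was at 3.35, 3.42 and 2.88 CPM in Mta3_del/del and 7.12, 8.86 and 7.22 CPM in Mta3_flox/flox (log2 fold change -1.32 ± 0.21, edgeR adjusted p = 0.0167), the reverse of its difference in Mta123KO. Slc2a1 was at 233, 288 and 297 CPM against 149.9, 94.9 and 158 (log2 fold change 0.97 ± 0.19, edgeR adjusted p = 0.0207). The call of Eno2 was lost without Mta3_del/del 1, and that of Slc2a1 without Mta3_del/del 1 or 3. The other 4 were genes of the lower pathway and lactate. Pgk1, phosphoglycerate kinase, was at 274, 298 and 310.04 CPM against 166, 155 and 240.1 (log2 fold change 0.60 ± 0.15, edgeR adjusted p = 0.0334). Ldha was at 522, 471 and 697 CPM against 313, 349.6 and 414 (log2 fold change 0.59 ± 0.15, edgeR adjusted p = 0.0378). Eno1 (log2 fold change 0.58 ± 0.16, edgeR adjusted p = 0.0462) and Pgam1 (log2 fold change 0.497 ± 0.13, edgeR adjusted p = 0.0413) completed the list, and the calls of Ldha, Eno1 and Pgam1 held without Mta3_del/del 2 only. The call of Pgk1 was lost without Mta3_del/del 1 or 3 or Mta3_flox/flox 1 or 2. Fibroblast markers summed to 5.66 to 6.33 CPM in Mta3_del/del and 10.4 to 38.3 CPM in Mta3_flox/flox, and their part in these differences was not tested.

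After deletion of Mta1 no member was called, and no gene of all 14561 was (0% in either direction) by edgeR. The unadjusted p was under 0.05 for 50 genes, fewer than chance alone would give, and DESeq2 called 1 gene, no member. With the replicate number as a block, since these groups were taken as paired, it was under 0.05 for 468 genes and none was called. Even Mta1 itself, the deleted gene, was not called by edgeR, so that the lack of calls says little about the members. The members' median log2 fold change was -0.10. Mta1 groups were wide, as for Ldhb, which gave 369.9, 298 and 62.2 CPM in Mta1_del/del and 646, 263 and 101 CPM in Mta1_flox/flox. Replicate 3 was low in both groups. The largest difference that the members showed was that of Pfkp, at 326, 294 and 308 CPM against 637, 400.4 and 368 (log2 fold change -0.60 ± 0.21, outside the rule for named genes).

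Other genes of glucose metabolism, from lists outside the 33 members, moved as follows. Of 13 hypoxia-response genes outside glycolysis, 4 were higher and 7 lower in Control libraries labelled 48 h, and in Mta123KO libraries 1 was higher and 2 lower. Beside the shares over all genes given above (29.5% and 29.0% in Control, 12.4% and 10% in Mta123KO), only the count of lower genes in Control stood well apart. Bnip3, which codes for a mitochondrial protein of mitophagy, fell in Control from 51.8, 49.7, 37.7 and 39.9 CPM to 4.301, 5.78, 5.17 and 8.997 CPM (log2 fold change -2.88 ± 0.20, edgeR adjusted p = 4.95e-07), and was at 6.77, 7.57, 10.5 and 11.3 CPM and 11.4, 11.5, 3.46 and 4.38 CPM in Mta123KO (interaction 2.65 ± 0.49, edgeR adjusted p = 0.001). Ndrg1, another gene of the list, moved the other way in Control, to 7.68 to 9.81 CPM from a range of 1.31 to 1.68 CPM (log2 fold change 2.53 ± 0.13, edgeR adjusted p = 4.09e-08), and Vegfa was also higher under 48 h. The list thus did not move as one. Of 5 transcription factors with a known role in the pathway, none was higher and 3 were lower in Control libraries labelled 48 h, beside the same shares. Myc fell from 21.2, 21.4, 28.8 and 28.9 CPM to 4.09, 0.867, 5.53 and 1.54 CPM (log2 fold change -3.03 ± 0.42, edgeR adjusted p = 8.49e-05).

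Of 7 genes of gluconeogenesis, 5 were tested between Mta123KO and Control under the label 2iL, where 3 were higher and 1 lower, beside 27.1% and 24.2% of all genes. Fbp1 and Fbp2 code for fructose bisphosphatases, which run the phosphofructokinase step in reverse. Fbp1 was at 42.003, 33.1, 14.2 and 13.4 CPM in Mta123KO libraries labelled 2iL, at 0.160 to 0.709 CPM in Control libraries labelled 2iL and at 0.418 to 0.624 CPM in Mta123KO libraries labelled 48 h (interaction -5.54 ± 0.70, edgeR adjusted p = 4.28e-05). Fbp2 was at 30.3, 23.8, 9.005 and 8.11 CPM in Mta123KO libraries labelled 2iL against 0.559 to 3.04 CPM in Control (log2 fold change 3.32 ± 0.65, edgeR adjusted p = 0.00257). High levels of both were thus found in 1 of the 4 groups, and line 1 exceeded line 2 there. Pck2, the mitochondrial phosphoenolpyruvate carboxykinase, was lower in Mta123KO under both labels. Libraries labelled 2iL held 5.18 to 19.9 CPM where Control held 56.6 to 90.6 (log2 fold change -2.505 ± 0.46, edgeR adjusted p = 0.00178) and those labelled 48 h 7.65 to 26.8 CPM where Control held 78.9 to 121 (log2 fold change -2.57 ± 0.42, edgeR adjusted p = 0.000912). Of the 7 pentose phosphate genes, 3 were higher and 3 lower in Mta123KO under the label 2iL and 3 were lower under 48 h, where 23.4% of all genes were. Txnip, which codes for an inhibitor of glucose uptake, was at 71.97, 74.5 and 77.7 CPM in Mta2_KO and 154, 159.8 and 163 CPM in Mta2_WT (log2 fold change -1.09 ± 0.04, edgeR adjusted p = 1e-07), and at 109, 106 and 128 CPM in Mta3_del/del and 261, 238 and 561 CPM in Mta3_flox/flox (log2 fold change -1.68 ± 0.28, edgeR adjusted p = 0.0178). Slc2a1 was called higher in both mutants. Between the cultures in Control, Txnip stood at 308 to 444 CPM under the label 2iL and 84.4 to 98.5 CPM under 48 h, where Slc2a1 was also lower. A link between these genes was not tested.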

How the data were processed

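RNA-seq counts of 34 libraries were analysed. The tables that the authors deposited hold raw gene counts with no normalization. Per the study's methods and the submitters' processing notes, reads were trimmed with Trim Galore, aligned to GRCm38/mm10 with TopHat2 and counted with featureCounts on Ensembl genes. How reads with several alignments were counted is not given in the sources used here, and it bears on genes with close copies.

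Groups came from the sample labels. The quasi-likelihood test of edgeR 4.0.16, which loads limma 3.58.1 under R 4.3.3, was run after filterByExpr and TMM scaling on the compared groups, and for the interaction on all 16 libraries. Calls needed a Benjamini-Hochberg adjusted p under 0.05. Full statistics are given for at most 10 called members of largest absolute log2 fold change per comparison. The members and lists were chosen with earlier results of these data known. Alternatives were DESeq2 1.42.0, no filter on low counts, a fit of all libraries of a set, the study's thresholds, summed lines, scaling on 92 ERCC RNAs, leaving out each library, and, chosen after the data were seen, adding the reads of copies with at least 95% identity over 200 coding bases. Steps were tested on simulated data. Identifiers matched GENCODE vM21 for 48349 of 48709 and 21852 of 22018 genes. Python 3.11.15, numpy 2.4.6, pandas 2.3.3 and matplotlib 3.10.9 were used.

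The replicate numbers come from the labels. Deviations of same-numbered libraries from their group means correlated at 0.272 to 0.337 between the cultures in Control, 0.552 to 0.586 in Mta123KO and 0.434 to 0.702 between the Mta1 groups, so that these were taken as paired. In the culture set same-numbered libraries also share a line, and the correlation cannot tell pairing by library from a shared line. Libraries of a Mta123KO line differed less (chi-square per degree of freedom 6.32 to 19.4) than libraries of different lines (87.0 to 113), so that p-values over single libraries may be too small. On this measure Mta2_KO 1 and 3 gave 4.41 and Mta2_WT 1 and 2 gave 8.63, while other pairs within these groups gave 74.7 to 215. The same limit on p-values then holds for the Mta2 comparison.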

Additional observations from a re-analysis of the deposited data

Results flagged for a closer look

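Within the groups of 4 libraries, 1 library stood apart from the other 3 for 2 of 132 member values tested by Dixon's test, where chance gives about 1 in 20. Gpi1 was lowest in the Control library 2_1 labelled 48 h, at 324.2 CPM against 374 to 381 CPM in the other 3. Pkm was highest in the Control library 2_2 labelled 48 h, at 1761 CPM against 1484 to 1531 CPM.

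The culture difference differed between the genotypes for 17 members by the interaction test of edgeR, as the log2 fold change of Mta123KO minus that of Control. The 10 largest are given with their tests above, at -2.51 for Hk1, 2.36 for Pdk1, 1.69 for Eno2, 1.65 for Slc16a3, -1.42 for Ldhb, 1.36 for Ldha, 1.355 for Tpi1, 1.354 for Eno3, 1.14 for Pfkl and 1.115 for Aldoc. The other 7, outside the rule for full statistics, were 0.80 for Eno1, -0.72 for Pfkfb2, -0.71 for Pfkfb3, 0.57 for Slc16a1, 0.52 for Pgk1, 0.49 for Pkm and 0.45 for Pdk3. The call of Pfkfb3 (edgeR adjusted p = 0.049) held without 4 of the 16 libraries only. With the libraries of a line summed, the adjusted p was 0.0231 for Hk1 and between 0.0773 and 0.327 for the other 16.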

How the results depend on the processing

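Of the 64 values printed for members of largest change, none changed sign under any alternative. DESeq2 and no filter on low counts kept all 64 calls, the replicate block 63, and ERCC scaling 44 of 48. Summing the libraries of a line kept 24 of 48, the fit of all libraries of a set 47 of 54, and leaving out a library 520 of 560.

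Counts of called members moved as follows. With the study's threshold of an absolute log2 fold change above 1 added, they were 10 between the cultures in Control, 3 in Mta123KO, 12 and 7 between the genotypes labelled 2iL and 48 h, 10 for the interaction, 1 for Mta2 and 1 for Mta3. The share of all genes above this threshold is not given here, so these counts are not read as a trait of the members. With the libraries of a line summed they were 0 between the cultures in Mta123KO, 8 and 8 between the genotypes and 1 for the interaction, beside the counts of all genes given above. ERCC scaling gave 5 between the cultures in Mta123KO, beside 1478 higher and 1317 lower of 21505 genes. It gave 11 for the interaction, whose counts of all genes are given above. The fit of all 18 libraries gave 5 for Mta2, where the calls over all genes also fell, as given above. DESeq2 gave 11 for Mta3, beside 1893 higher and 1691 lower of 15522 genes, where edgeR called 1291 and 1217. With the replicate block the count was 20 between the cultures in Mta123KO, where the numbers were taken to pair the samples. The block changed no call of a comparison taken as paired among the 64 values. For Mta3, whose same-numbered libraries correlated at -0.129 to 0.340, it was 11, beside 1248 higher and 1220 lower of 15522 genes. In the other unpaired comparisons the correlations were -0.255 to -0.035 and -0.103 to 0.0306 between the genotypes and -0.183 to 0.306 for Mta2, and the block moved no count by over 1.5 times but removed the calls of Slc2a3 (labelled 2iL), Ldha and Slc16a3 (labelled 48 h) between the genotypes and of Slc2a3 for Mta2. The cause of these moves was not tested.

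Leaving out each library in turn gave 22 to 23 members between the cultures in Control, 6 to 8 in Mta123KO, 21 to 24 and 18 to 21 between the genotypes labelled 2iL and 48 h, 16 to 19 for the interaction, 0 to 0 for Mta1, 16 to 20 for Mta2 and 0 to 9 for Mta3. Over all genes, higher and lower calls were 5862 to 6219 and 5797 to 6210 in Control and 2042 to 2412 and 1553 to 1762 in Mta123KO. Between the genotypes they were 5231 to 5973 and 4438 to 5500 labelled 2iL, and 4999 to 5718 and 4355 to 4892 labelled 48 h. They were 2477 to 2866 and 2020 to 2503 for the interaction, 0 for Mta1, 3051 to 3740 and 3238 to 4006 for Mta2, and 1 to 2066 and 2 to 2065 for Mta3. Depth limits few values, since the lowest count of a member in any library was 54.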

Other observations

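Genes that take pyruvate into mitochondria, outside the 33 members, were also called between the cultures. Of the 8 genes of this list, 5 were higher and 1 lower in Control libraries labelled 48 h, and 2 were higher and 1 lower in Mta123KO, beside 29.5% higher and 29.0% lower of all genes in Control and 12.4% and 10% in Mta123KO. Pdp1 and Pdp2 code for phosphatases that act against the pyruvate dehydrogenase kinases. In Control cells Pdp2 rose from 35.7, 33.6, 35.3 and 35.5 CPM to 109, 110.04, 124 and 131 CPM (log2 fold change 1.77 ± 0.07, edgeR adjusted p = 7.94e-09). Pdp1 fell there from 12.6, 12.6, 10.2 and 11.3 CPM to 5.55, 5.96, 5.67 and 5.198 CPM (log2 fold change -1.05 ± 0.10, edgeR adjusted p = 4.71e-06). The groups overlapped for neither gene. Pdp2 also rose in Mta123KO (log2 fold change 1.27 ± 0.24, edgeR adjusted p = 0.00682), and was lower in Mta2_KO than in Mta2_WT, with 128, 125 and 124 against 243, 238 and 228 CPM (log2 fold change -0.92 ± 0.04, edgeR adjusted p = 2.73e-07).

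Mpc1, a subunit of the mitochondrial pyruvate carrier, was higher in Control libraries labelled 48 h (log2 fold change 1.06 ± 0.16, edgeR adjusted p = 0.000203) and lower in Mta2_KO (log2 fold change -0.98 ± 0.07, edgeR adjusted p = 5.05e-06). Pcx, which codes for pyruvate carboxylase, was higher in Mta123KO under both labels (log2 fold change 1.06 ± 0.08, edgeR adjusted p = 1.47e-05 under 2iL and 1.27 ± 0.09, edgeR adjusted p = 1.25e-05 under 48 h). These genes were chosen after their values were seen.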
